A study of Mus musculus with 6 samples.

Results

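The cytosolic ribosomal protein genes encode the protein part of the ribosome outside mitochondria. They were taken as the genes whose symbol is Rpl or Rps with a number and an optional a, x or l, or is Rplp0, Rplp1, Rplp2 or Rpsa, wherever a probe set of the array named that gene and no other. This gave 38 of 30063 genes, 23 of the large and 15 of the small subunit, each read from its brightest probe set over 6 arrays. RNA came from epidermis of E18.5 mouse embryos, late in gestation. There were 3 arrays of Rptor cKO epidermis (arrays 1 to 3), a conditional knockout of the gene for Raptor, and 3 arrays of wild-type littermates (arrays 4 to 6). The sources used here do not give the Cre driver, the alleles, the strain or whether animals were pooled, and the series text calls the 3 samples of a group biological replicates. Epidermal sheets were freed from the dermis with ammonium thiocyanate. Each difference is the Rptor cKO mean minus the wild-type mean in log2 units, and "rose" or "fell" stands for an adjusted p under 0.05 in limma across all genes.

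A ribosome joins ribosomal RNA to one copy of most ribosomal proteins, so that cells make these proteins in matched amounts. Most of their mRNAs start with a C followed by a run of pyrimidines, the terminal oligopyrimidine (TOP) tract. mTORC1, the kinase complex that Raptor brings to its substrates, keeps TOP mRNAs in translation, through LARP1 and the 4E-BP proteins. It also promotes synthesis of ribosomal RNA and phosphorylates ribosomal protein S6 through the S6 kinases. An expression array reads how much of an mRNA is present and not how much of it is translated.

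Sequences around the RefSeq transcription start are given for the members that rose and for contrasting ones. Each runs from 20 bases before the RefSeq start to 25 bases from the start onward, on the strand of the gene, in GRCm38.p6. Capitals mark a C followed by at least 5 pyrimidines, the longest such run that begins within 20 bases of the start. The capitals of Rpl4, Rpl6 and Rps27l end before the start base. By that start they are not part of the mRNA and form no TOP tract. The windows lie at chr9:64173367-64173411 on the plus strand for Rpl4, chr17:33955641-33955685 on the minus strand for Rps18, chr5:121204481-121204525 on the plus strand for Rpl6, chr14:24490658-24490702 on the plus strand for Rps24, chr5:115559447-115559491 on the plus strand for Rplp0 and chr9:66946066-66946110 on the plus strand for Rps27l. Rpl4, Rps18 and Rpl6 rose. Rps24 and Rplp0 were higher on all Rptor cKO arrays without passing the threshold, and Rps27l was lower on all of them. No window is given for Rpl6l, the other member that rose, or for a further RefSeq start of Rps24 and of Rps27l.
Rpl4: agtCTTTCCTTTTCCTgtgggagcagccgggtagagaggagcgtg
Rps18: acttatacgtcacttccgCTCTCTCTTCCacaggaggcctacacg
Rpl6: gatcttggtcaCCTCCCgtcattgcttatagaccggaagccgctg
Rps24: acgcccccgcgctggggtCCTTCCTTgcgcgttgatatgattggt
Rplp0: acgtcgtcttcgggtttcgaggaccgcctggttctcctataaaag
Rps27l: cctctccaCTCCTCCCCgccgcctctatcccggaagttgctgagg

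A run of this kind may lie wholly before the start base, and then it is no TOP tract by that start. A gene with several RefSeq starts was counted, here and below, if any of its starts had the match. The run was in the window of 21 of the 32 members with a RefSeq promoter entry (65.6%), against 34.8% of 27025 genes. It was in 6 of the 10 members with an entry that were higher with no overlap of the groups (60.0%), and in 15 of the other 22 (68.2%). The stricter form, a C at the start base itself and 4 further pyrimidines, was in 5 of the 32 (15.6%), against 3.01% of all genes. CCGGAAG, letters read by ETS family factors, was searched on both strands from 250 bases before to 50 after the start, and was in 15 of the 32 (46.9%), against 9.93% of all genes. TATAAA, searched the same way, was in 5 of the 32 (15.6%), against 15.7% of all genes. These matches describe letters only and say nothing of use of a site.

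Ribosomal protein mRNAs differed little between Rptor cKO and wild-type epidermis. Of the 38 members, 4 rose (Rpl6l, Rpl4, Rps18 and Rpl6), beside 3.64% of all genes, and 0 fell, beside 5.96% of all genes. Of those that rose, Rpl6l is listed by RefSeq as a pseudogene. At an unadjusted p under 0.05 in the same limma fit, 10 members were higher and 1 lower, beside 11.9% and 11.4% of all genes. The differences ran from -0.26 for Rps27l to 0.49 for Rpl6l, with a median of 0.14, against a median of 0.05 over all genes. Of the members, 33 of 38 lay above 0, where 61.6% of all genes did. The 95% interval of every member stayed inside 1 on the log2 scale in both directions, which leaves out a 2-fold change, and the intervals of 27 members included 0. The SD of the differences was 0.15 over the members and 0.40 over all genes. The p-values measure the spread between these arrays. RMA makes the arrays' distributions alike, so a shift shared by all RNA would not be seen.

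**Figure D1:**
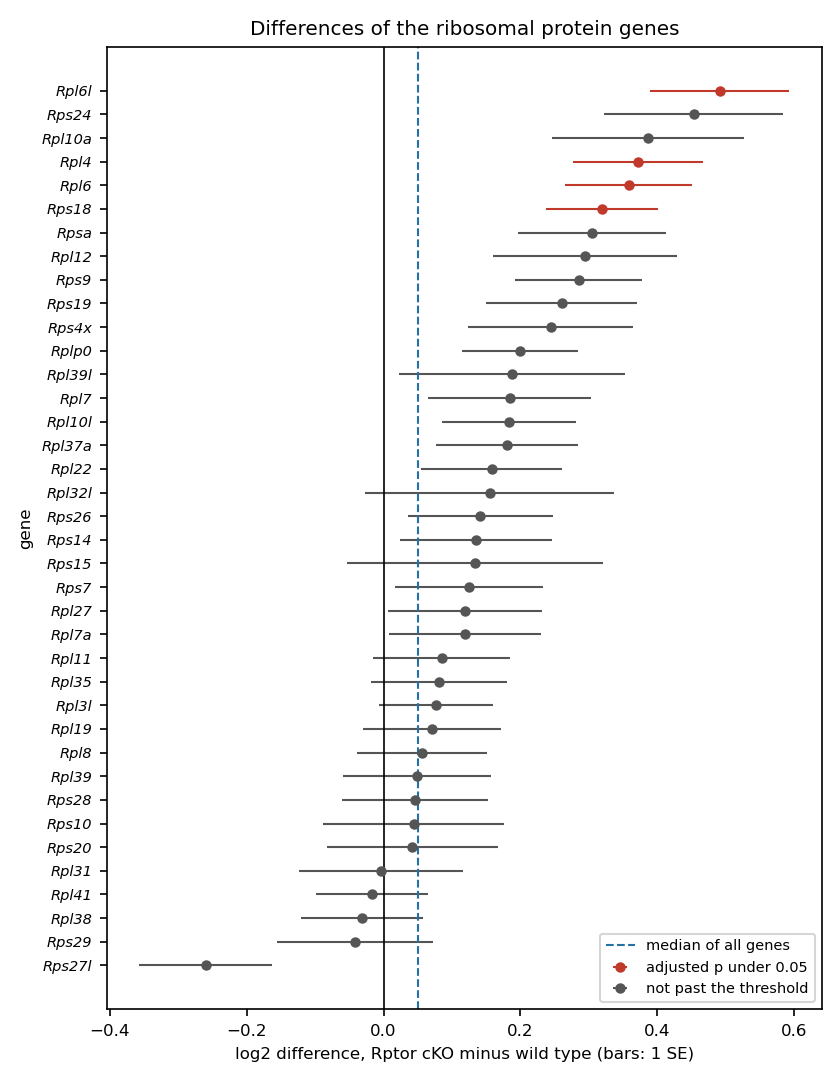
Difference between Rptor cKO and wild type for each of the 38 ribosomal protein genes, with bars of 1 SE from limma and the median of all genes as a dashed line. Of the genes, 33 lie above 0 and 4 are past the threshold, and Rps27l is the lowest at -0.26.

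The 3 large subunit genes that rose were Rpl6l, Rpl4 and Rpl6. Rpl4, whose protein extends a loop into the wall of the peptide exit tunnel, had log2 values of 11.92, 11.90 and 11.89 on the Rptor cKO arrays, against 11.42, 11.51 and 11.67 on the wild-type arrays. The groups did not overlap, and wild-type array 4 was the lowest. The difference was 0.37 (SE 0.10, limma adjusted p = 0.0456), a fold of 1.29. Rpl6, a protein on the outer face of the large subunit, stood at 8.37, 8.29 and 8.16 on the Rptor cKO arrays, against 7.94, 7.86 and 7.94 on the wild-type arrays. All Rptor cKO values were above all wild-type values, by 0.36 (SE 0.09, limma adjusted p = 0.0478). Rpl6l, which RefSeq lists as a pseudogene and whose name makes it a relative of Rpl6, gave 8.84, 8.70 and 8.63 on the Rptor cKO arrays, against 8.11, 8.27 and 8.33 on the wild-type arrays. Here too the groups stood apart, by 0.49 (SE 0.10, limma adjusted p = 0.0213). Whether the probe sets of Rpl6 and Rpl6l read each other's RNA was not tested.

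Rps18, a protein of the head of the small subunit, was the small subunit gene that rose. Its log2 values were 7.84, 7.82 and 7.84 on the Rptor cKO arrays, against 7.55, 7.48 and 7.51 on the wild-type arrays. The groups were tight and did not overlap, and the difference was 0.32 (SE 0.08, limma adjusted p = 0.0477). The adjusted p of Rpl4, Rps18 and Rpl6 lay just under the threshold, and each was lost under several other settings given in the closing section. The next in order of p was Rps24, a small subunit protein whose human gene is mutated in some cases of Diamond-Blackfan anaemia. Rps24 had 9.01, 8.71 and 8.73 on the Rptor cKO arrays, against 8.29, 8.22 and 8.58 on the wild-type arrays, a difference of 0.45 (SE 0.13, limma adjusted p = 0.0703) with no overlap. Rpl10a, of the mobile L1 stalk beside the tRNA exit site, had the third largest difference, 0.39 (SE 0.14, limma adjusted p = 0.136), with values of 8.57, 8.93 and 8.84 on the Rptor cKO arrays, against 8.21, 8.63 and 8.35 on the wild-type arrays. Its groups overlapped.

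In all, 11 members were higher on every Rptor cKO array than on any wild-type array, beside 16.5% of all genes, and 1 was lower in the same sense, beside 12.5% of all genes. Besides the members that rose and Rps24, the 11 were Rps9, Rpsa, Rps19, Rplp0, Rpl10l and Rpl3l, with differences from 0.08 for Rpl3l to 0.30 for Rpsa. Rpsa, a small subunit protein also known as the laminin receptor precursor, had 9.62, 9.55 and 9.45 on the Rptor cKO arrays, against 9.11, 9.18 and 9.42 on the wild-type arrays (limma adjusted p = 0.131). Its highest wild-type value came close to the lowest Rptor cKO value. Rps9, which lines the mRNA entry site, differed by 0.29 (limma adjusted p = 0.101). Rps19, the gene most often mutated in human Diamond-Blackfan anaemia, differed by 0.26 (limma adjusted p = 0.199), and Rps9 and Rps19 were named after their values were seen.

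Rps27l, a paralog of Rps27 that is a p53 target in human cells, went the other way. It had 7.53, 7.62 and 7.69 on the Rptor cKO arrays, against 7.84, 7.78 and 8.0 on the wild-type arrays. Every Rptor cKO value lay below every wild-type value, by 0.26 on average (-0.26, SE 0.10, limma adjusted p = 0.149). The other members below 0 were Rps29 (-0.04), Rpl38 (-0.03), Rpl41 (-0.02) and Rpl31 (-0.004), all with overlapping groups. Rpl38 is needed in the mouse embryo for translation of a set of Hox mRNAs. It gave 9.39, 9.50 and 9.57 on the Rptor cKO arrays, against 9.48, 9.51 and 9.56 on the wild-type arrays, so the ranges nearly coincided (SE 0.09, limma adjusted p = 0.872).

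**Figure D2:**
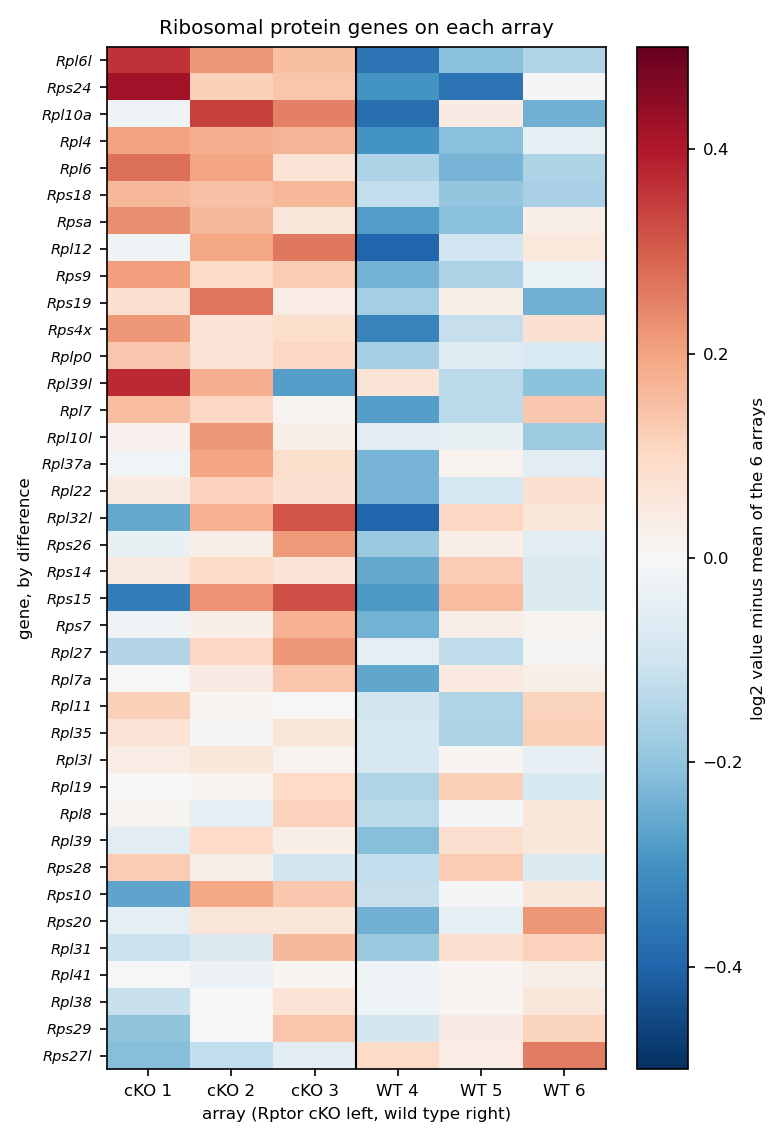
Each ribosomal protein gene on each array as the log2 deviation from its own mean over the 6 arrays, with Rptor cKO arrays 1 to 3 on the left and wild-type arrays 4 to 6 on the right. Wild-type array 4 is above the gene's mean for 2 of 38 genes.

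Wild-type array 4 stood lower than the rest over the members. The median deviation of the 38 members from their own means was 0.02, 0.10 and 0.10 on Rptor cKO arrays 1 to 3, against -0.19, -0.004 and 0.002 on wild-type arrays 4 to 6. Array 4 was above the members' own means for 2 of 38 genes, and wild-type arrays 5 and 6 for 18 and 19. Over all genes the same medians lay between -0.06 and 0.05. Without array 4 the median of the members was 0.07 beside 0.05 over all genes, 28 of 38 lay above 0, and 0 members rose. Without any other single array the median stayed between 0.11 and 0.18.

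**Figure D3:**
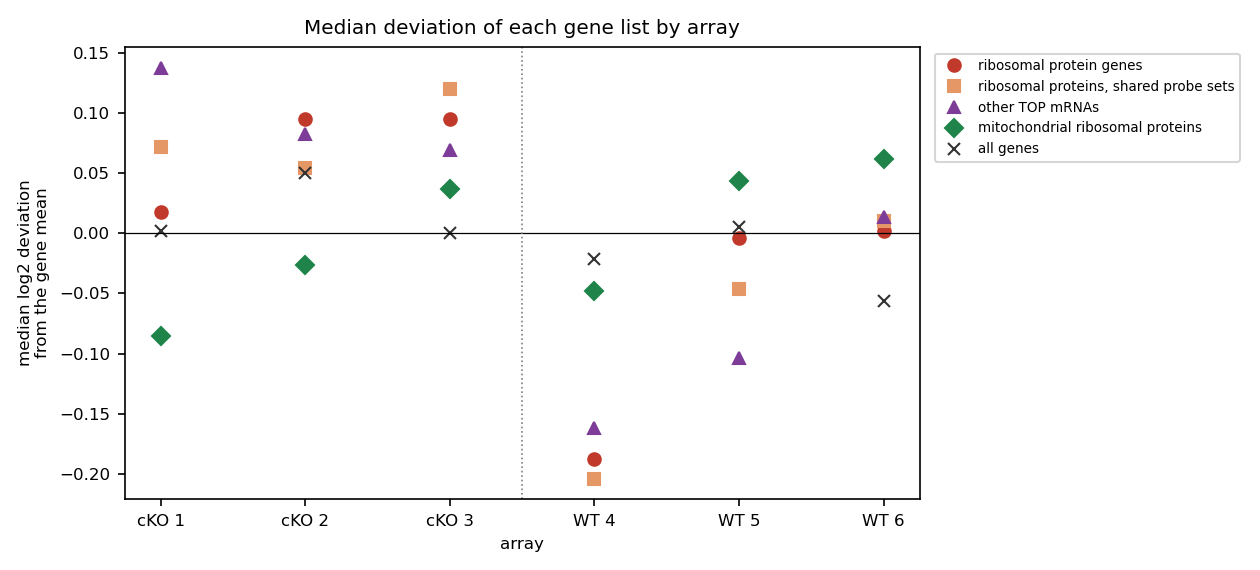
Median log2 deviation from the gene's own mean on each array, for the ribosomal protein genes, related lists and all genes. Wild-type array 4 holds the lowest point of the ribosomal protein genes, at -0.19, and Rptor cKO arrays 2 and 3 the highest, at 0.10.

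The large subunit members had a median difference of 0.16, with 20 of 23 above 0 and 3 that rose. The small subunit members had one of 0.14, with 13 of 15 above 0 and 1 that rose. Over all genes 61.6% lay above 0 and 3.64% rose. Without wild-type array 4 the large subunit median was 0.08, with 18 of 23 above 0. The small subunit median was then 0.04, with 10 of 15 above 0, beside a median of 0.05 over all genes. A further 38 genes of the family are read from probe sets that also name other genes, so their values are less certain, and they were added to the role groups below. Of these 38, 35 lay above 0, beside 61.6% of all genes, with a median of 0.17, and 12 were higher with no overlap, beside 16.5% of all genes. Rplp2 rose among them, and 0 fell. As with the members, their median deviation was lowest on wild-type array 4, at -0.20, against -0.05 and 0.01 on wild-type arrays 5 and 6. Over all 76 genes, 5 rose and 0 fell, beside 3.64% and 5.95% of all genes in that fit, and every 95% interval again stayed inside 1.

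The P stalk, which recruits the translation factors that hydrolyse GTP, gave 5 measured genes with its base and a median of 0.22. Of these 5 genes 1 rose, beside 3.64% of all genes. Rplp2, a stalk protein, had 7.91, 8.0 and 7.87 on the Rptor cKO arrays, against 7.57, 7.51 and 7.59 on the wild-type arrays, a difference of 0.37 (SE 0.09, limma adjusted p = 0.032). Its groups were well apart. Rplp1, its partner in the stalk, had 12.01, 11.84 and 11.90 on the Rptor cKO arrays, against 11.94, 11.73 and 12.04 on the wild-type arrays. Those groups overlapped, with a difference of 0.01 (limma adjusted p = 0.96). Rplp0, which anchors both, had 10.33, 10.26 and 10.30 on the Rptor cKO arrays, against 10.03, 10.13 and 10.12 on the wild-type arrays, and differed by 0.20 without passing the threshold (SE 0.09, limma adjusted p = 0.204).

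Rps6, the substrate of the S6 kinases that is commonly used to read mTORC1 activity through its phosphorylation, was read from a shared probe set. Its log2 values were 8.63, 8.61 and 8.74 on the Rptor cKO arrays, against 8.33, 8.46 and 8.51 on the wild-type arrays. The groups did not overlap, and the difference was 0.22 (SE 0.09, 95% interval 0.01 to 0.44, limma adjusted p = 0.196). Of the 5S ribonucleoprotein, whose proteins bind MDM2 when they are not built into ribosomes, Rpl5 had 8.46, 8.34 and 8.24 on the Rptor cKO arrays, against 8.16, 8.01 and 8.14 on the wild-type arrays. It differed by 0.25 (limma adjusted p = 0.174) with no overlap. Rpl11, the other protein of that particle, overlapped between groups, with 7.54, 7.43 and 7.42 on the Rptor cKO arrays, against 7.33, 7.27 and 7.53 on the wild-type arrays.

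Among 8 genes of the peptide exit tunnel and its rim, Rpl4 rose, beside 3.64% of all genes, and the median was 0.08. Of 5 genes of mRNA entry and decoding, 3 measured of 4 at the mRNA exit and 4 measured of 5 at the bridges between the subunits, 0 passed the test, with medians of 0.14, 0.14 and 0.03. In those groups 1, 0 and 0 genes had an unadjusted p under 0.05. A list of paralogs in the family gave 5 genes with 0 past the test, and Rps27l alone had an unadjusted p under 0.05. Rpl10l, which replaces Rpl10 in male germ cells, had 5.04, 5.24 and 5.05 on the Rptor cKO arrays, against 4.96, 4.98 and 4.84 on the wild-type arrays. Rpl3l, the form of heart and skeletal muscle, had 4.40, 4.42 and 4.38 on the Rptor cKO arrays, against 4.28, 4.37 and 4.32 on the wild-type arrays. Rpl3l was dim, close to the negative control medians of 3.81 to 4.11, and Rpl10l lay somewhat further above them. Rpl39l, known from the testis, overlapped between the groups with a difference of 0.19 (limma adjusted p = 0.557). Rps4l, read from a shared probe set, had -0.32 (limma adjusted p = 0.287), with 7.73, 8.08 and 8.39 on the Rptor cKO arrays, against 8.33, 8.31 and 8.51 on the wild-type arrays.

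Not every member was read at its own place in the genome. For 7 members the brightest probe set lies on another chromosome than the gene, by the chromosome in its name (Rpl12, Rpl27, Rpl31, Rpl35, Rpl41, Rpl7a and Rps26). None of these 7 rose or fell, and their median was 0.12, against 0.16 for the 31 members read on their own chromosome, all 4 that rose among them. Where the gene's own chromosome holds a probe set too, the values differed by gene. Rpl41 had -0.02 on the other chromosome and 0.15 on its own, Rpl7a had 0.12 and -0.05, and Rpl27 had 0.12 on both. Rpl35 had 0.08 and 0.185, and Rps26 0.14 and 0.13. From probe sets on their own chromosome that also name another gene, Rpl12 had 0.45, against 0.29, and Rpl31 0.05, against -0.004. On that Rpl12 probe set the groups did not overlap. Among 219 named ribosomal protein pseudogenes 4 rose and 0 fell, beside 3.64% and 5.96% of all genes. Of the 219, 205 lay above 0, beside 61.6% of all genes, and the median was 0.17. Under quantile normalization 6 rose and 2 fell, and with array medians subtracted 1 rose. The number that rose was 0 to 5 with 1 array left out, lowest without Rptor cKO array 2 or 3. The pseudogene Rpl17-ps9 differed by 0.44 (limma adjusted p = 0.0176). How much of these probe sets' signal comes from the parent gene was not tested.

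The genes around the ribosomal proteins were read in the same fit. The other TOP mRNAs, which encode elongation factors and related proteins, had a median of 0.15 over 18 measured genes. Of these, 1 rose and 0 fell, beside 3.64% and 5.96% of all genes. The gene that rose was Npm1, nucleophosmin of the nucleolus. It had 10.39, 9.87 and 9.94 on the Rptor cKO arrays, against 9.36, 9.03 and 9.63 on the wild-type arrays. Npm1 differed by 0.72 (SE 0.18, limma adjusted p = 0.0458). Its groups did not overlap. In this list 0 rose with array medians subtracted, under quantile normalization, with an intensity trend or with every probe set tested. The same held with no moderation of the variances, and when any of arrays 1 to 4 was left out. Eef2, the elongation factor that moves the ribosome along, differed by 0.41 (limma adjusted p = 0.0629). On wild-type array 4 this list also had its lowest median deviation, -0.16. Of 22 measured initiation factors, 0 rose and 1 fell, beside 3.64% and 5.96% of all genes, with a list median of -0.07. Eif2b4, a subunit of the exchange factor of eIF2, fell by 0.51 (SE 0.12, limma adjusted p = 0.0378). Under quantile normalization 0 fell and the list median was 0.01. With an intensity trend, with no moderation of the variances or with every probe set tested, 0 fell too. When any of arrays 1 to 5 was left out 0 fell, while 1 rose without Rptor cKO array 2.

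Genes that bind TOP mRNAs or control translation held larger falls. Of 13 measured, 4 fell and 0 rose, beside 5.96% and 3.64% of all genes, and 2 fell without Rptor cKO array 2. Pdcd4, an inhibitor of eIF4A that S6 kinase marks for degradation, had 7.42, 7.22 and 7.55 on the Rptor cKO arrays, against 8.90, 8.71 and 9.08 on the wild-type arrays. The groups were far apart, with a difference of -1.503 (SE 0.13, limma adjusted p = 0.00102). Larp1b, a relative of Larp1, fell by 1.40 (limma adjusted p = 0.00133), and Eef2k, the kinase that slows elongation by phosphorylating eEF2, fell by 1.00 (limma adjusted p = 0.00972). The fourth was Rps6kb2, an S6 kinase, which differed by -0.85 (limma adjusted p = 0.0129) and was named after its values were seen. Larp1, which holds TOP mRNAs when mTORC1 is inactive, differed by 0.33 (SE 0.10, limma adjusted p = 0.0691), and Eif4ebp1 by 0.00 (SE 0.09, limma adjusted p = 1).

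Ribosomal RNA synthesis and the carriers of ribosomal proteins held further rises. Of 19 measured genes of ribosomal RNA synthesis, 4 rose and 0 fell, beside 3.64% and 5.96% of all genes, with a median of 0.32. Polr1b, the second largest subunit of RNA polymerase I, had 7.39, 7.12 and 7.16 on the Rptor cKO arrays, against 6.46, 6.22 and 6.65 on the wild-type arrays, a difference of 0.78 (SE 0.13, limma adjusted p = 0.0105). Its groups stood apart. Myc, a transcription factor that drives ribosome production, differed by 0.76 (limma adjusted p = 0.0246), and Nolc1, a nucleolar phosphoprotein, by 0.50 (limma adjusted p = 0.0275). Polr1a, the catalytic subunit of that polymerase, was the fourth, with 0.48 (limma adjusted p = 0.0345), and was named after its values were seen. Of 12 measured chaperones and import factors, 2 rose and 0 fell, namely Grwd1, the chaperone of Rpl3 (0.37, limma adjusted p = 0.0267), and Tsr2, the chaperone of Rps26 (0.41, limma adjusted p = 0.035). Of the ribosomal RNA synthesis genes, 1 rose without array 1, 2 or 4, 2 without array 3 or 5, and 2 with array medians subtracted. Of the chaperones and import factors, 1 rose without array 3, and 0 rose when any other array was left out or with array medians subtracted.

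The mitochondrial ribosomal proteins, which build the separate ribosome of that organelle, had a median of -0.09 over 75 genes, with 32 above 0. Of these, Mrps18b rose (0.33, limma adjusted p = 0.0483) and 0 fell, beside 3.64% and 5.96% of all genes. That call was lost whichever array was left out. With array medians subtracted, and with the filter on dim probe sets, 0 of the list rose and 2 fell. Wild-type array 4 did not stand apart in this list, with a median deviation of -0.05 there, against -0.09 on Rptor cKO array 1. Of 6 further ribosomal protein genes that the naming rule leaves out, 4 were measured, and 0 passed limma's test or had an unadjusted p under 0.05. The smallest p among them were those of Rpl22l1, a paralog of Rpl22 (-0.19), and Rpl7l1, a relative of Rpl7 (0.07).

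**Figure D4:**
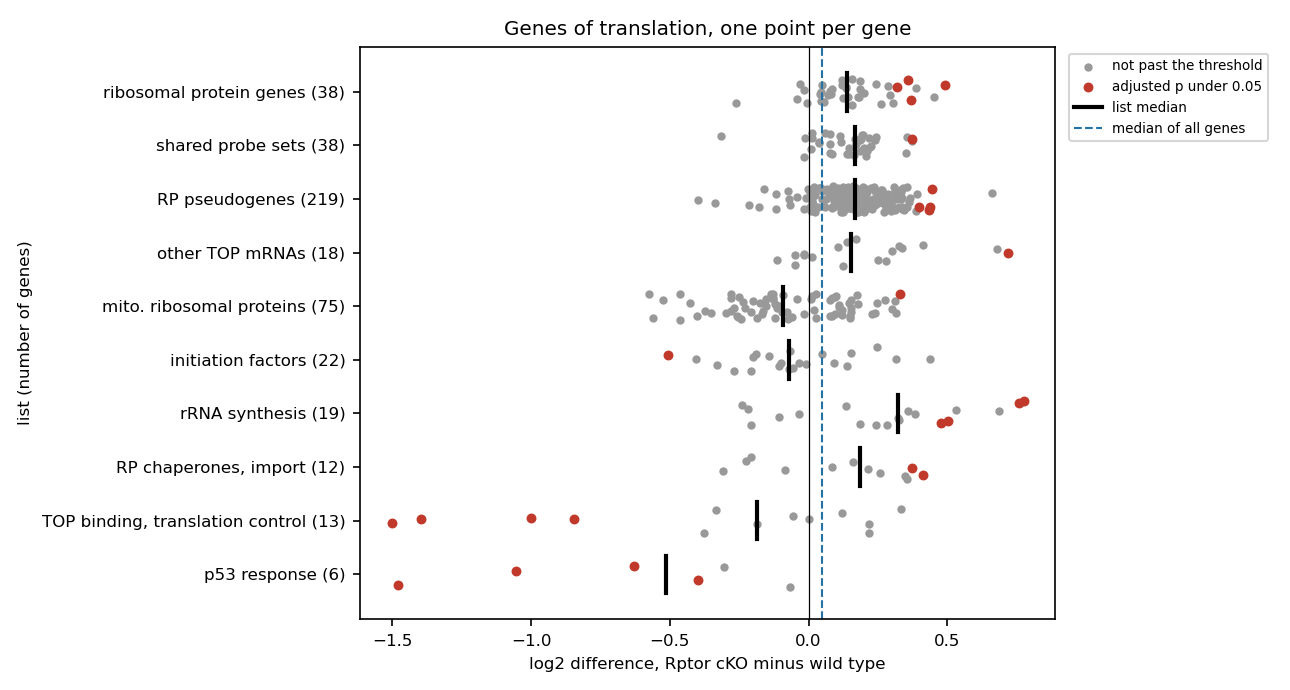
Difference between Rptor cKO and wild type for each gene of the ribosomal protein genes and 9 related lists, with bars at the list medians and a dashed line at the median of all genes. The ribosomal protein genes lie between -0.26 and 0.49 around a median of 0.14, and Pdcd4 at -1.503 is the lowest of the genes of TOP binding and translation control.

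The tissue label and the makeup of the sheets were checked with markers. Beside the counts below, 3.64% of all genes rose and 5.96% fell. Of 7 basal keratinocyte genes 1 rose and 1 fell. Itgb4, an integrin of hemidesmosomes, differed by 0.98 (limma adjusted p = 0.00291) and the keratin gene Krt15 by -2.31 (limma adjusted p = 0.00687), while Krt5 and Krt14, bright on all arrays, differed by 0.04 and 0.26 without passing the test. All 9 suprabasal keratinocyte genes fell, with a median of -1.97, and their mean level was 8.81 to 10.13 on the Rptor cKO arrays, against 10.89 to 11.51 on the wild-type arrays. Without Rptor cKO array 1, Rptor cKO array 2 or wild-type array 6 the number that fell was 6, 3 or 4. Of 6 measured fibroblast genes 4 rose, with mean levels of 6.42 to 6.96 on the Rptor cKO arrays, against 5.87 to 6.07 on the wild-type arrays, and 1 to 5 rose with 1 array left out, fewest without Rptor cKO array 2 or wild-type array 6. Of 5 measured cycling genes 2 rose, with mean levels of 8.31 to 8.36 on the Rptor cKO arrays, against 7.75 to 8.17 on the wild-type arrays, and 0 to 4 rose with 1 array left out, fewest without Rptor cKO array 2. Of 5 endothelial genes 1 rose, of 6 macrophage and Langerhans precursor genes 2 fell, of 4 Merkel cell genes 1 rose and 1 fell, and of 5 melanocyte and 5 skeletal muscle genes 0 passed the test, with 2 and 5 at an unadjusted p under 0.05. The skeletal muscle genes had mean levels of 5.58 to 6.22 on the Rptor cKO arrays, against 5.13 to 5.71 on the wild-type arrays. Rptor itself had 6.54, 6.82 and 6.72 on the Rptor cKO arrays, against 6.98, 7.46 and 7.0 on the wild-type arrays, a difference of -0.46 (SE 0.15, limma adjusted p = 0.0988) with no overlap, and the sources used here do not say whether its probe set covers the deleted part. By Xist and the Y-linked gene Kdm5d, 1 Rptor cKO array came from a male and 2 from females, against 3 from males in wild type. The part that cell makeup and sex have in the ribosomal protein values was not tested, and in sheets a change in the share of a cell type cannot be told apart from a change per cell. Of the X-linked members, Rps4x differed by 0.24 (limma adjusted p = 0.271) and Rpl39 by 0.05. Among the genes read from shared probe sets, Rpl10 (0.22, a gene of the P stalk base) and Rpl36a (0.21) are X-linked too. Both were higher with no overlap of the groups.

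**Figure D5:**
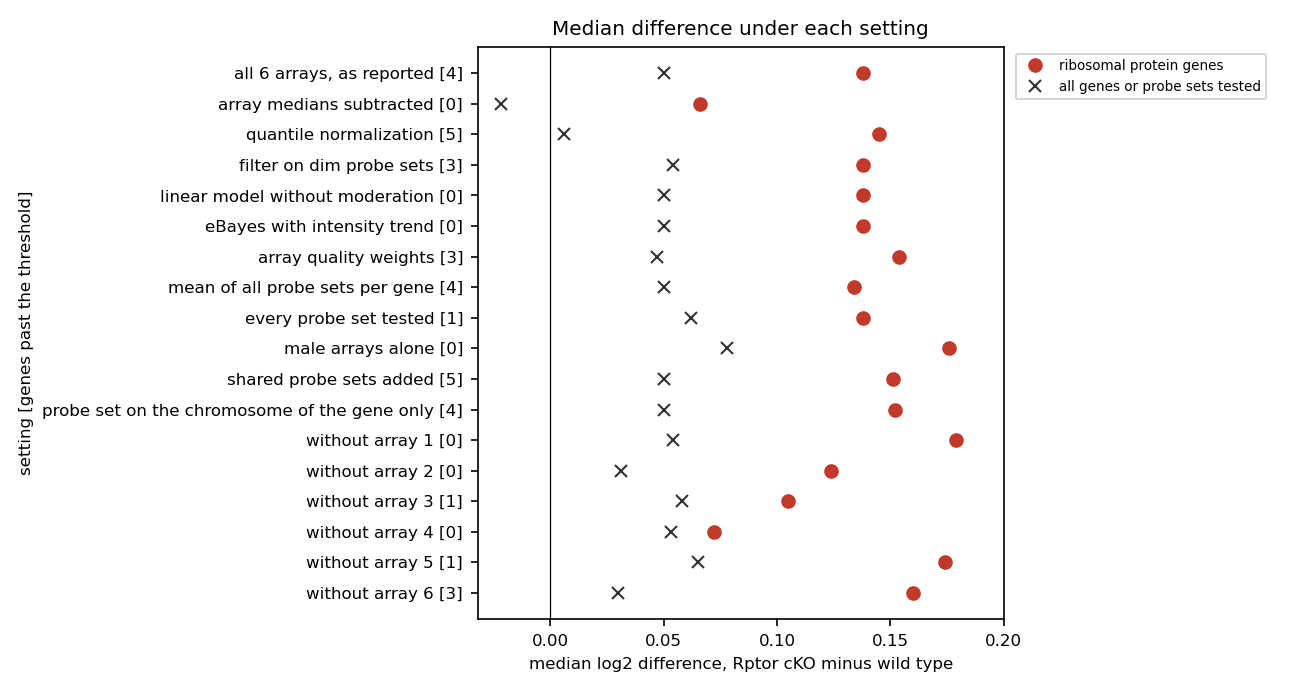
Median difference of the ribosomal protein genes and of all genes under each way of processing, with the number of ribosomal protein genes that rose. The members' median runs from 0.07 to 0.18 and lies above that of all genes in each setting, with the smallest gap without wild-type array 4.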

How the data were processed

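The deposited log2 values per probe set were made by the authors with RMA in Partek on genome build mm10, per the submitters' processing notes, with versions not given in the sources used here. Of 65956 non-control probe sets, 30604 named a single gene in the platform annotation. Symbols were updated by Entrez ID and RefSeq synonyms, which gave 30063 genes, each read from its brightest probe set. Array medians lay between 4.06 and 4.21, and the number of arrays limits the precision. Differences were fitted with limma 3.58.1 (lmFit, eBayes, 4.31 prior degrees of freedom) in R 4.3.3, two-sided, with Benjamini-Hochberg adjustment over all genes and no filter. By permutation 3 against 3 arrays cannot go below p = 0.1. Tables and plots used Python 3.11.15, pandas 2.3.3 and matplotlib 3.10.9. Sequences are from RefSeq, GRCm38.p6, and 32 of 38 members matched.

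The members and lists were chosen with earlier results of these data known. Named genes were those past the threshold with groups apart (up to 8 a direction), the 4 smallest p where fewer passed, the 3 largest and smallest differences, and set genes such as Rps6 and Larp1. Other lists gave up to 3 genes a direction. The fit was tested on simulated data. The alternatives tried are in the closing section.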

Additional observations from a re-analysis of the deposited data

How the results depend on the processing

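Of the results above, 4 members rose in the fit as reported. That count was 0 with each array's median subtracted, with no moderation of the variances and with an intensity trend, and 1 with every probe set tested. The male arrays alone hold 1 Rptor cKO array against 3 in wild type, so the Rptor cKO group has no replicate there. On them the members' median difference was 0.18. The count of members that rose was 5 under quantile normalization, which added Rps24 and Rps9 and lost Rpl4. It was 3 or 4 under the remaining alternatives that kept all arrays. With the shared probe sets added, 5 of 76 genes rose, the same 4 members and Rplp2. Leaving out 1 array gave 0 to 3, with 0 without Rptor cKO array 1, Rptor cKO array 2 or wild-type array 4, 1 without Rptor cKO array 3 or wild-type array 5, and 3 without wild-type array 6. Over the alternatives other than the male arrays, Rpl6l passed in 10, Rpl4 in 6, Rpl6 in 5 and Rps18 in 5. There the adjusted p of the linear model ran from 0.0196 to 0.129 for Rpl6l and from 0.0367 to 0.148 for Rpl4. It ran from 0.027 to 0.162 for Rpl6 and from 0.0193 to 0.151 for Rps18. All 4 differences stayed above 0 in these alternatives. No member fell under any of them. The members' median ran from 0.07 to 0.18.

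Over all genes 2886 passed, against 8 with no moderation, 867 on the male arrays alone and 900 to 2444 with 1 array left out. With array medians subtracted, 585 rose and 1825 fell, against 1095 and 1791 as reported, and the median of all genes was -0.02, against 0.05 as reported. Over the related lists together, pseudogenes and p53 response included, 12 genes rose and 9 fell, beside 3.64% and 5.96% of all genes. These lists hold 219 pseudogenes and 75 mitochondrial ribosomal proteins, besides the smaller lists. The rises numbered 3 with array medians subtracted, 2 with an intensity trend, 4 with every probe set tested and 0 with no moderation, and the falls 0 with no moderation. With 1 array left out, 2 to 11 genes of these lists rose, fewest without Rptor cKO array 1 or 2 or wild-type array 4, and 3 to 11 fell, fewest without Rptor cKO array 2. The alternative that took only probe sets on the gene's own chromosome was chosen after seeing the data and gave 4 members that rose. The cause of these changes was not tested. No paired analysis was possible because the groups share no replicate numbers. The sources used here give no slide or scan date.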

Other observations

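Several genes known to respond to p53 fell in Rptor cKO epidermis. Of 6 measured genes of a list for the response to unassembled ribosomal proteins, 4 fell and 0 rose, beside 5.96% and 3.64% of all genes, with a median of -0.51. When array 2 was left out 1 fell, and when array 5 or 6 was left out 2 fell. With no moderation of the variances 0 fell. On the male arrays alone, with 1 Rptor cKO array, the median was -0.59. Trp53inp1, a p53 target of cell death and autophagy, had 5.03, 4.52 and 4.95 on the Rptor cKO arrays, against 5.88, 6.84 and 6.23 on the wild-type arrays, a difference of -1.48 (SE 0.24, limma adjusted p = 0.00854). Cdkn1a, the cell cycle inhibitor p21, had 8.08, 8.42 and 9.05 on the Rptor cKO arrays, against 9.56, 9.74 and 9.42 on the wild-type arrays, a difference of -1.05 (SE 0.22, limma adjusted p = 0.0231). The groups of both genes did not overlap. Sesn2, a stress sensor of amino acids, also fell (-0.63, limma adjusted p = 0.0156), and Zmat3, an RNA-binding protein, was the fourth (-0.40, limma adjusted p = 0.0252). Mdm2, the ubiquitin ligase of p53, differed by -0.07 (limma adjusted p = 0.739). Zmat3 and Mdm2 were named after their values were seen.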
